A study of Mus musculus with 6 samples.

Results

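The 37 genes described here encode glycolysis and sterol synthesis enzymes, with glucose transporters and the regulators of the sterol pathway. They were chosen by gene symbol from a fixed list, 21 for glucose uptake and glycolysis and 16 for sterol synthesis, out of 22551 distinct symbols. Each had at least 1 row in the expression matrix. RNA was measured by sequencing in 6 libraries of mouse pro-B cell colonies, grown from bone marrow in methylcellulose medium that supports B cells and harvested at passage 1, when the colonies were 1 week old. The titles name 3 libraries wild-type and 3 Ts1Rhr, a strain with an extra copy of a chromosome segment orthologous to part of the human Down syndrome region. The genotype field reads Ts1Rhr for all 6 libraries. Their columns are headed p1A1, p1A2, p1A3, p1C1, p1C2 and p1C3, and no source used here says what the letters A and C stand for. No genotype was therefore assigned to a column, the lettered columns were not compared as groups, and the genotypes cannot be told apart here. All values below describe the 6 libraries as 1 set, given in the order of the column codes above.

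Glycolysis splits glucose into pyruvate in the cytosol, and lactate dehydrogenase then turns pyruvate into lactate. Several of its steps have isozymes from separate genes, which tissues use in different proportions. Sterol synthesis builds cholesterol from acetyl-CoA through mevalonate and squalene. Its genes are switched on together by SREBP factors when membrane sterol is low, and INSIG proteins hold SREBP back in the endoplasmic reticulum. Growing lymphocyte precursors draw on both pathways.

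Levels are FPKM, fragments scaled to transcript length and to the mapped fragments of the library, so they compare genes per length. No read totals are given, and the depth behind a value is unknown. A gene was taken as expressed when its median over the 6 libraries was at least 1 FPKM, which held for 10673 symbols. All 21 glycolysis members and 15 of the 16 sterol members passed. Summed FPKM per library ran from 367094 in p1C1 to 413152 in p1C2, and log2 values correlated across genes with r from 0.969 to 0.992 between libraries. All 11 pro-B markers were expressed, among them Vpreb1, a surrogate light chain gene, at a median of 437 FPKM. The 8 myeloid markers with a row were also all expressed, led by Lyz2, the lysozyme gene, at 2457 to 4437 FPKM. None of the 4 T cell and none of the 4 erythroid markers reached a median of 1 FPKM. Of 4 mast cell and basophil markers Mcpt8 did (2.74 FPKM), and of 3 stromal markers Col1a2 did (2.79 FPKM). The summed mast cell and basophil level ran from 2.64 FPKM in p1C1 to 6.25 in p1A2, and Mcpt4 was listed at 0 throughout.

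The promoters of the sterol members are shown first because these genes shared a sequence feature and had the narrower ranges of the 2 lists. RefSeq windows on GRCm38.p6, from 250 bases before to 50 after the start site, were found for 13 of the 16 sterol members and 20 of the 21 glycolysis members. Each was searched on both strands, and no motif searched contains another. The CCAAT box, a binding sequence of NF-Y, lay in at least 1 window of 13 of 13 sterol genes, against 9 of 20 glycolysis genes and 41.1% of all 27025 genes with a window. Per window the count was 14 of 18 for the sterol genes and 37.4% over all windows. GGGCGG, a core of SP1 sites, was found for 12 of 13 sterol genes, 13 of 20 glycolysis genes and 38.2% of all genes. Searched as an exact string, the sterol regulatory element TCACNCCAC matched 1 sterol gene, Hmgcs1, starting 137 bases before its start site. It also matched 2 glycolysis genes, Aldoc and Pkm2, and 1.44% of all genes. Elements with any other letters were not counted, and the sterol members Fdps, Fdft1 and Sqle had no window. The E-box CACGTG was found for 3 sterol genes, Insig1, Sc5d and Dhcr7, for 2 glycolysis genes and for 8.09% of all genes. These matches describe letters and were not tested as binding sites. In the 4 windows below, capitals mark CCAAT or its reverse complement.
Hmgcs1, chr13:119690101-119690400, plus strand: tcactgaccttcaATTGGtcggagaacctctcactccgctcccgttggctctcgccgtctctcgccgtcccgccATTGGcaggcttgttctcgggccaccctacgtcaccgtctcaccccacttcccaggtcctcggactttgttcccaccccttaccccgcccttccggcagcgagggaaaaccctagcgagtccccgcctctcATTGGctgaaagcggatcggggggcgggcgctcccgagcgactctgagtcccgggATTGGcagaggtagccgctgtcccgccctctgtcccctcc
Mvk, chr5:114444019-114444318, plus strand: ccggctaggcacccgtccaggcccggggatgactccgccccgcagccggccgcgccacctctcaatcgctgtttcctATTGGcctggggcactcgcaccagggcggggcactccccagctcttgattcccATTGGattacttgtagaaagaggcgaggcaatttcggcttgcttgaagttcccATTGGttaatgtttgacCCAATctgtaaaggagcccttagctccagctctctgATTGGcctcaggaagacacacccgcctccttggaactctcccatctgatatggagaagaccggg
Idi1, chr13:8885356-8885655, plus strand: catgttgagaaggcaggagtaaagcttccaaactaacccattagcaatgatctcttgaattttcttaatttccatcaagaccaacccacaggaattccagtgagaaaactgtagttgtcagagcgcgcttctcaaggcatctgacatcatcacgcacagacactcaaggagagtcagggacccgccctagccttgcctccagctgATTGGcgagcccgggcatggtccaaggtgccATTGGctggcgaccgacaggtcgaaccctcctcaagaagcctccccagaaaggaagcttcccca
Srebf2, chr15:82147019-82147318, plus strand: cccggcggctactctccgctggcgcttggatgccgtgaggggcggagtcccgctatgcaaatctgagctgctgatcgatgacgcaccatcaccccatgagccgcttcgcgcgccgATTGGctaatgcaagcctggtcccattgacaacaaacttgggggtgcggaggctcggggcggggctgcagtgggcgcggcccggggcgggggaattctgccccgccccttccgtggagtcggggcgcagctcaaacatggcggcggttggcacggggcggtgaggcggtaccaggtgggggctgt
Mvk, for mevalonate kinase, held 5 CCAAT boxes and Hmgcs1 held 4, whereas Idi1 held 2 and Srebf2 held 1. Srebf2 held 5 GGGCGG motifs, the most of the 4 windows shown.

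Glycolysis members had medians from 1.98 to 459.8 FPKM, with a single dominant isozyme at most of the branched steps. Lactate dehydrogenase, pyruvate kinase and glyceraldehyde-3-phosphate dehydrogenase stood at the top. Ldha, the subunit favoured in lactate-producing cells, measured 436, 413, 483, 401, 518 and 485 FPKM. Pkm2 is the matrix's symbol for the pyruvate kinase gene of muscle and growing cells, and it measured 406, 428, 487, 373, 480.0 and 458 FPKM. A gene-level value cannot separate the alternative transcripts of that gene. Gapdh, which makes the NADH of the pathway, measured 434, 441, 507, 393, 462 and 434 FPKM. For all 3 of these genes p1C1 was the lowest library, and each had a median above that of 98.8% of expressed genes. How the deposited values treat reads shared with processed pseudogenes, which are many for Gapdh and other glycolysis genes, is not stated.

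**Figure D1:**
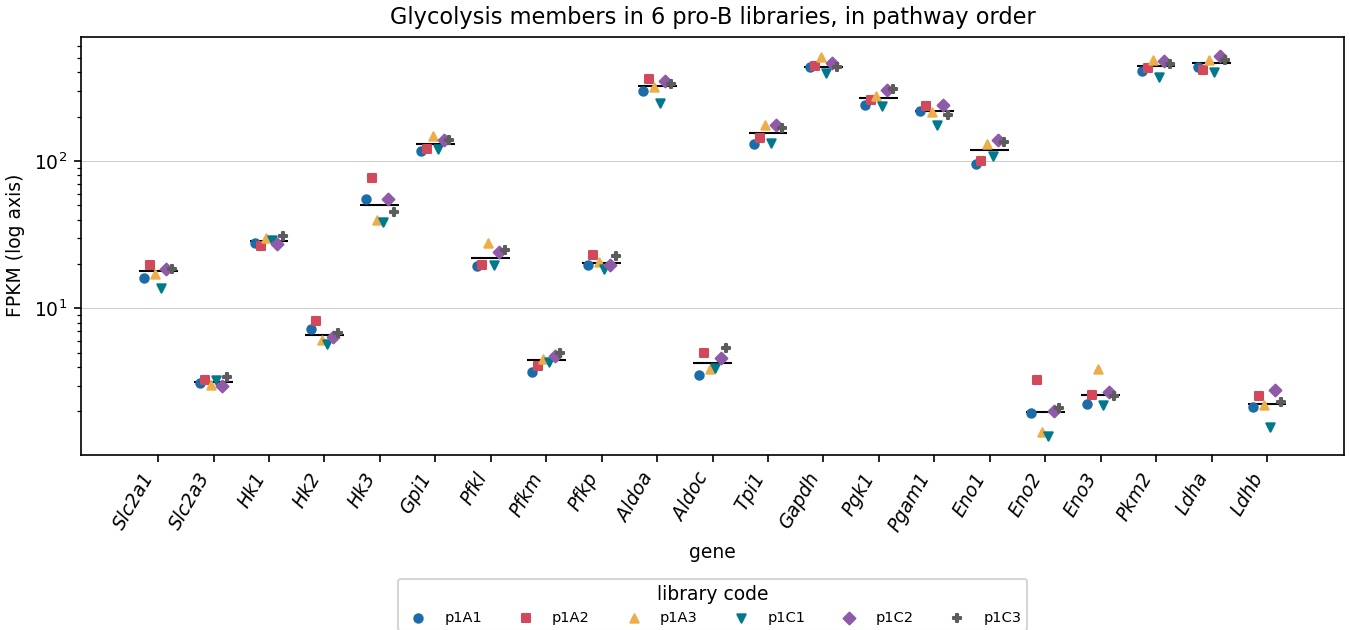
FPKM on a log axis for the 21 glycolysis members in pathway order, with 1 point per library and a bar at the median. Ldha (median 459.8 FPKM) and Ldhb (2.26 FPKM) lie farthest apart of the isozymes, whereas the points of Pfkl and Pfkp, and of Eno2 and Eno3, overlap.

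The other single-gene or near single-gene steps were also high. Aldoa, the aldolase that cleaves fructose bisphosphate, had a lowest value of 249 FPKM, a median of 324 and a highest value of 362. Pgk1, the first ATP-yielding kinase, spanned 235 to 309 FPKM around a median of 269, and Pgam1, the phosphoglycerate mutase, spanned 176 to 239 around 217. Tpi1, which interconverts the triose phosphates, had a median of 155 FPKM, Gpi1, the glucose phosphate isomerase, 129.5, and Eno1, the ubiquitous enolase, 119.7. Summed over isozymes, hexokinase ran from 73.4 to 112.0 FPKM, phosphofructokinase from 42.5 to 52.9 and the 2 glucose transporters from 17.1 to 22.8. Not all early steps were low, since Gpi1 ran from 118 to 148 FPKM. Summed enolase, a late step, ran from 99.7 to 145 FPKM and overlapped with hexokinase. The summed lactate dehydrogenase level was 402 to 521 FPKM. The ranges of hexokinase, phosphofructokinase and the glucose transporters do not overlap with each other or with that of lactate dehydrogenase.

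Hexokinase, which traps glucose in the cell as glucose 6-phosphate, was led by Hk3. Hk3, the hexokinase abundant in myeloid blood cells, measured 55.3, 77.3, 39.5, 38.3, 55.2 and 44.8 FPKM. Hk1, the housekeeping form, measured 27.8, 26.5, 30.1, 29.4, 27.4 and 31.2 FPKM, and Hk2, the form induced by insulin and growth signals, 7.28, 8.18, 6.11, 5.70, 6.42 and 6.79 FPKM. Hk3 was thus the highest and Hk2 the lowest in each of the 6 libraries. Hk3 took 52.2% to 69.0% of the summed hexokinase level and Hk2 7.21% to 8.20%. The share of Hk3 was highest in p1A2 and lowest in p1A3, with p1C1 close to it at 52.2%.

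Isozymes were compared within each library by the log2 ratio of FPKM + 0.1, with an exact two-sided sign-flip permutation test over the 6 libraries and Benjamini-Hochberg adjustment over 13 pairs. The smallest p this design allows is 0.03125, and 11 pairs reached it, each with an adjusted p of 0.0369 and the same direction in 6 of 6 libraries. The test sets a ratio against the spread between libraries and does not cover a bias of FPKM between genes. The labels do not say whether the libraries came from separate animals, so this spread may be partly technical. Hk3 exceeded Hk1 by a median log2 ratio of 0.76 ± 0.46 (SD, 6 libraries) and Hk2 by 2.82 ± 0.23. Hk1 exceeded Hk2 by 2.13 ± 0.25.

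Phosphofructokinase, the committed step, was shared between the liver-type and platelet-type genes. Pfkl measured 19.5, 19.8, 27.7, 19.8, 24.2 and 25.1 FPKM and Pfkp 19.7, 23.0, 20.7, 18.4, 19.8 and 22.8 FPKM. Pfkl was the higher in 4 of 6 libraries, with a median log2 ratio of 0.12 and an exact permutation p of 0.25 (adjusted 0.25), so no order was resolved between them. Pfkm, the muscle type, lay at 3.73 to 5.02 FPKM, below Pfkl by a median log2 ratio of 2.31 ± 0.14 and below Pfkp by 2.16 ± 0.17.

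For lactate dehydrogenase, aldolase and enolase 1 gene held nearly all of the signal. Ldha made up 99.4% to 99.6% of lactate dehydrogenase, and Ldhb, the subunit of oxidative tissues such as heart, lay at 1.58 to 2.78 FPKM, a median 207-fold lower. Aldoa made up 98.4% to 98.8% of the aldolase level, a median 74.0-fold above Aldoc, the brain-enriched form, at 3.53 to 5.42 FPKM. Eno1 made up 94.5% to 96.8% of enolase. Eno2, the neuronal enolase, measured 1.94, 3.26, 1.44, 1.37, 2.03 and 2.12 FPKM and Eno3, the muscle enolase, 2.24, 2.61, 3.89, 2.23, 2.73 and 2.54 FPKM. Eno3 was above Eno2 in 5 of 6 libraries, with the order turned in p1A2, and the exact permutation p was 0.125 (adjusted 0.135). Slc2a1, the widely expressed glucose transporter, measured 16.1, 19.6, 17.2, 13.8, 18.5 and 18.4 FPKM and Slc2a3, the high-affinity transporter of neurons and leukocytes, 2.97 to 3.42 FPKM. Slc2a1 took 80.8% to 86.2% of their sum, with a median log2 ratio of 2.43 ± 0.20.

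**Figure D2:**
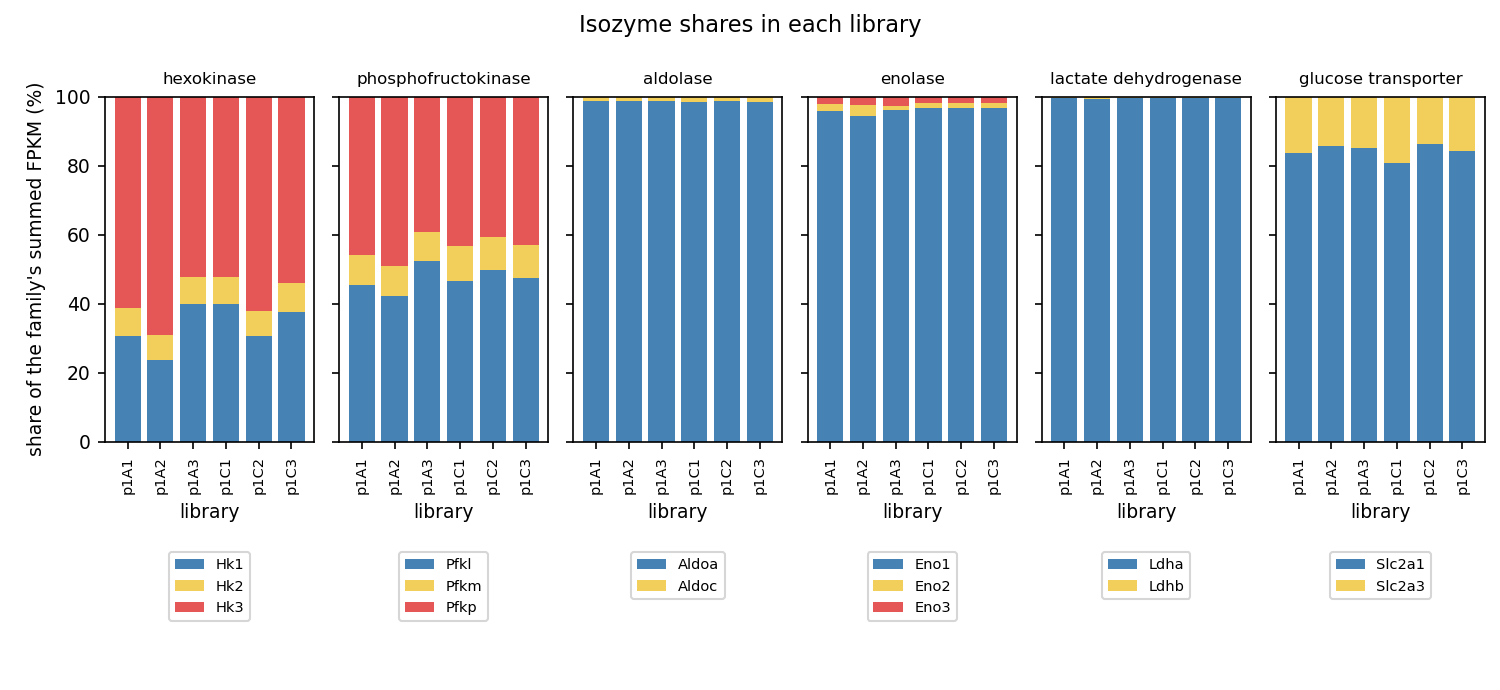
Share of each isozyme in its family's summed FPKM (%), 1 stacked bar per library, for 5 glycolysis steps and glucose transport. Hk3 holds 52.2% to 69.0% of hexokinase, Pfkl and Pfkp share phosphofructokinase, and Aldoa, Eno1 and Ldha each hold at least 94.5% of their step.

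The highest library was at least 2-fold above the lowest for 2 of 21 glycolysis members, Eno2 (2.38-fold) and Hk3 (2.02-fold), and for 0 of 15 expressed sterol members, against 7.76% of all expressed genes. At 1.5-fold the counts were 5 of 21, adding Ldhb, Eno3 and Aldoc, and 0 of 15, against 26% of all expressed genes. Without p1A2 no member reached 2-fold, against 3.23% of all expressed genes, so the share of all genes fell there as well. Without p1C1 only Eno2 did, against 6.34% of all expressed genes. Slc2a3 (1.15-fold) and Hk1 (1.18-fold) had the narrowest ranges of the glycolysis members.

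Hk3 and Eno2 were both highest in p1A2 and lowest in p1C1, as were Hk2, Pfkp, Aldoa and Slc2a1. These 6 were all of the 21 glycolysis members that were highest in p1A2. In p1C1, 17.1% of all expressed genes were lowest, and the share of all expressed genes with both extremes was not counted. Of all expressed genes, 22.7% were highest and 39.5% lowest in p1A2, so that library stood apart beyond these members. All 8 myeloid markers were highest in p1A2, by a median log2 deviation of 0.74 from their own medians. Their summed level, mostly Lyz2, ran from 2700.5 FPKM in p1C1 to 4914 in p1A2, with p1A3 close to p1C1 at 2716. Mpo, Csf1r, Cd14, S100a8 and S100a9 were lowest in p1C1, Lyz2 and Itgam in p1A3 and Elane in p1C3. Lyz2 measured 3445, 4437, 2457, 2462, 3637 and 3441 FPKM and S100a8, a neutrophil calcium-binding protein gene, 89.9, 158, 84.3, 75.3, 149 and 102 FPKM. The 11 pro-B markers had their lowest median deviation, -0.50, in p1A2. A smaller number of cells of a type and less RNA per cell cannot be told apart in these bulk libraries. The part of myeloid cells in the levels of these 6 members was not tested.

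**Figure D3:**
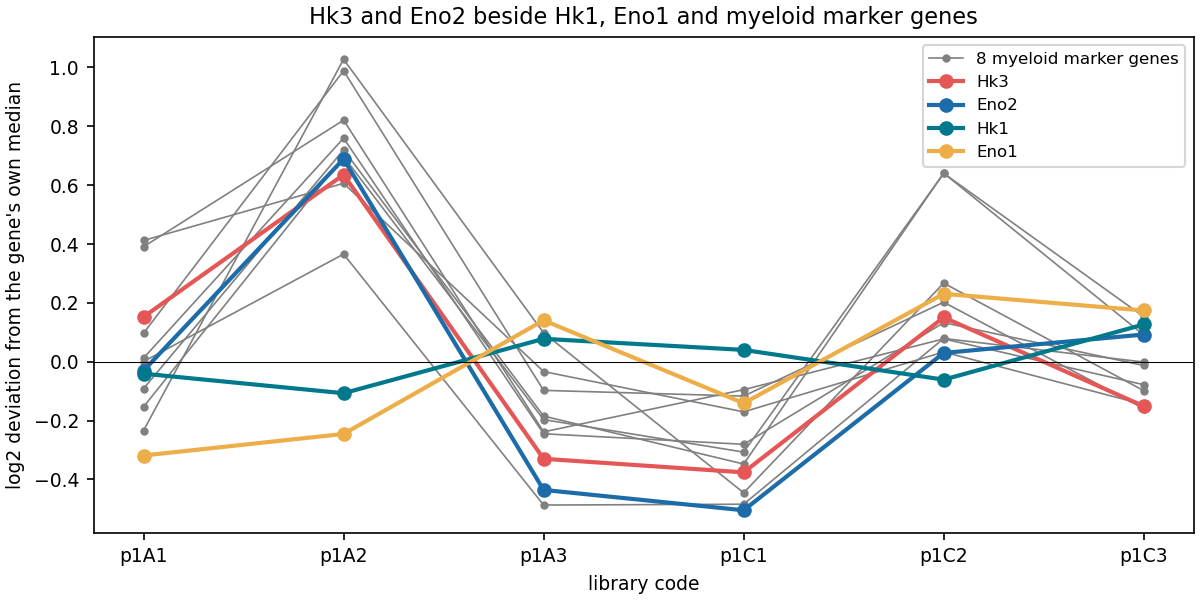
Log2 deviation of each gene from its own median over the 6 libraries, for Hk3, Eno2, Hk1, Eno1 and 8 myeloid marker genes (grey), with lines that only join the points of 1 gene. Hk3, Eno2 and all 8 markers peak in p1A2, where Hk1 and Eno1 lie below their medians.

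Across libraries the list median of the glycolysis members spanned more than that of the sterol members, a difference that was not tested. The median log2 deviation of glycolysis members from their own medians was -0.20 in p1C1, -0.12 in p1A1, 0.02 in p1A2, 0.03 in p1A3, 0.09 in p1C3 and 0.10 in p1C2. The median of all expressed genes stayed between -0.05 and 0.03. In p1C1, 19 of 21 members lay below their own median, against 5741 of all 10673 expressed genes. In the same library 13 of 21 members had their lowest value, against 17.1% of all expressed genes. These 13 included Aldoa, Pgam1, Ldha, Pkm2, Gapdh, Pgk1, Slc2a1 and Hk2. Another 6, including Gpi1, Tpi1, Eno1 and Pfkl, were lowest in p1A1, against 7.71% of all expressed genes. In p1C2, the library with the highest list median, 4 of 21 were at their highest, against 17.1% of all expressed genes. These libraries were picked for the list medians, so the counts are descriptions. In p1C1 the 8 myeloid markers had a median deviation of -0.29, their lowest, and the 11 pro-B markers one of 0.16, their highest, and the part of cell types in the glycolysis levels was not tested. p1C1 and p1A1 also had the lowest summed FPKM, 367094 and 370619. With all libraries set to equal totals, 8 of 21 members were lowest in p1C1, against 8.92% of all expressed genes, and the list median there was -0.12. Among the 579 genes with a median of at least 100 FPKM, the median deviation was -0.04 in p1C1 and -0.18 in p1A2.

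Sterol synthesis members lay in a middle range, between 6 and 56 FPKM, apart from Hmgcs1. Idi1, which isomerises isopentenyl diphosphate, measured 38.6, 36.7, 38.0, 40.4, 39.6 and 40.1 FPKM. Fdps, which joins isoprenoid units into farnesyl diphosphate, was the highest enzyme at 41.7, 44.4, 52.7, 47.6, 55.0 and 49.9 FPKM. Sqle, the squalene epoxidase and a rate-controlling oxygenase, measured 25.0, 26.7, 25.9, 26.3, 27.6 and 26.0 FPKM. Idi1 and Sqle stayed within 1.10-fold and 1.11-fold over the 6 libraries, whereas Fdps spanned 1.32-fold with p1A1 lowest and p1C2 highest.

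The early mevalonate enzymes were lower than Idi1 and Fdps. Mvk had a median of 7.15 FPKM (6.35 to 8.52), Pmvk, the next kinase, 11.8 (10.1 to 14.2) and Mvd, the decarboxylase, 11.3 (10.7 to 11.7). Pmvk had the widest range of the sterol members, 1.40-fold. Of the enzymes from squalene onward, Fdft1, the squalene synthase, had a median of 9.89 FPKM and Lss, which closes the sterol rings, 7.07. Cyp51, the lanosterol demethylase, had a median of 18.0 FPKM and a range of 1.08-fold. Nsdhl, for a sterol dehydrogenase, lay at 12.3 FPKM, Sc5d, for a desaturase, at 13.3, and Dhcr7, which makes cholesterol in the last step, at 20.4. Cyp51, Mvd, Idi1 and Sqle had the 4 narrowest ranges of all members, 1.08- to 1.11-fold.

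Hmgcs1, the cytosolic HMG-CoA synthase that feeds the pathway, is listed at 0 in all 6 libraries, in each of its 2 rows. Symbols with more than 1 row were listed at 0 throughout for 155 of 260 (59.6%), against 23.0% of the symbols with a single row. No fold or absence was therefore read from it.

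The regulators were expressed beside their targets. Srebf2, for the SREBP that mainly drives sterol genes, measured 41.2, 41.4, 46.7, 47.2, 44.2 and 44.8 FPKM. Srebf1, whose products mainly drive fatty acid genes, measured 22.2, 23.0, 26.7, 27.0, 28.8 and 27.5 FPKM. Srebf2 was higher in 6 of 6 libraries, by a median log2 ratio of 0.80 ± 0.10 (exact permutation test, adjusted p = 0.0369). Insig1, itself an SREBP target, had a median of 30.3 FPKM (27.8 to 33.2). Both Srebf genes had their lowest value in p1A1.

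**Figure D4:**
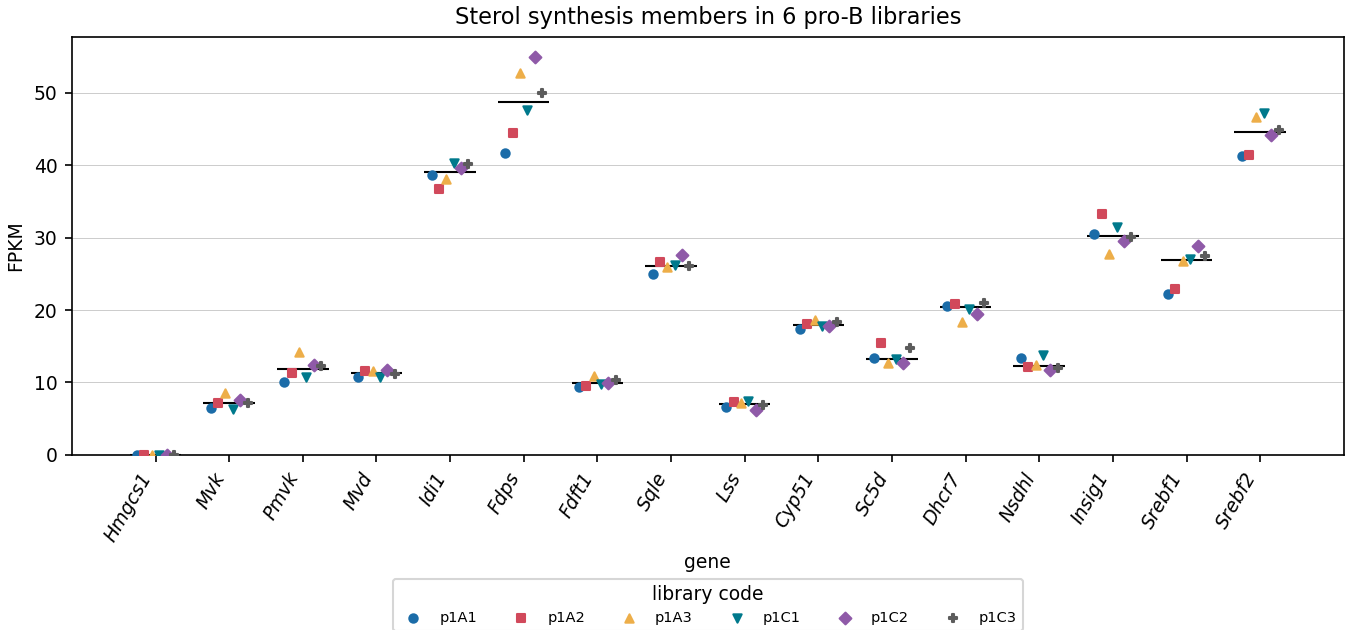
FPKM on a linear axis from 0 for the 16 sterol members, with 1 point per library and a bar at the median. Fdps, Srebf2 and Idi1 are the highest, Hmgcs1 is listed at 0 in all 6 libraries, and no expressed member spans more than 1.40-fold.

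The median range of the 15 expressed sterol members was 1.17-fold, against 1.33-fold for all expressed genes and 1.36-fold for the glycolysis members. For genes of similar level, the members were also set beside 6892 genes with medians from 5 to 60 FPKM, which include all 15. The median range of those genes was 1.29-fold and 17.7% of them reached 1.5-fold, against 0 of 15. The median log2 deviation of the sterol members was -0.08 in p1A1 and stayed between -0.01 and 0.03 in the other 5 libraries. In p1A1, 8 of 15 had their lowest value, against 7.71% of all expressed genes. With equal totals that count was 3 of 15, against 4.47%, and the list median was lowest in p1C2 (-0.09) and -0.02 in p1A1, so the low library depends on the scaling. In p1C3, which had the highest list median, 1 of 15 was at its highest, against 6.37% of all expressed genes.

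**Figure D5:**
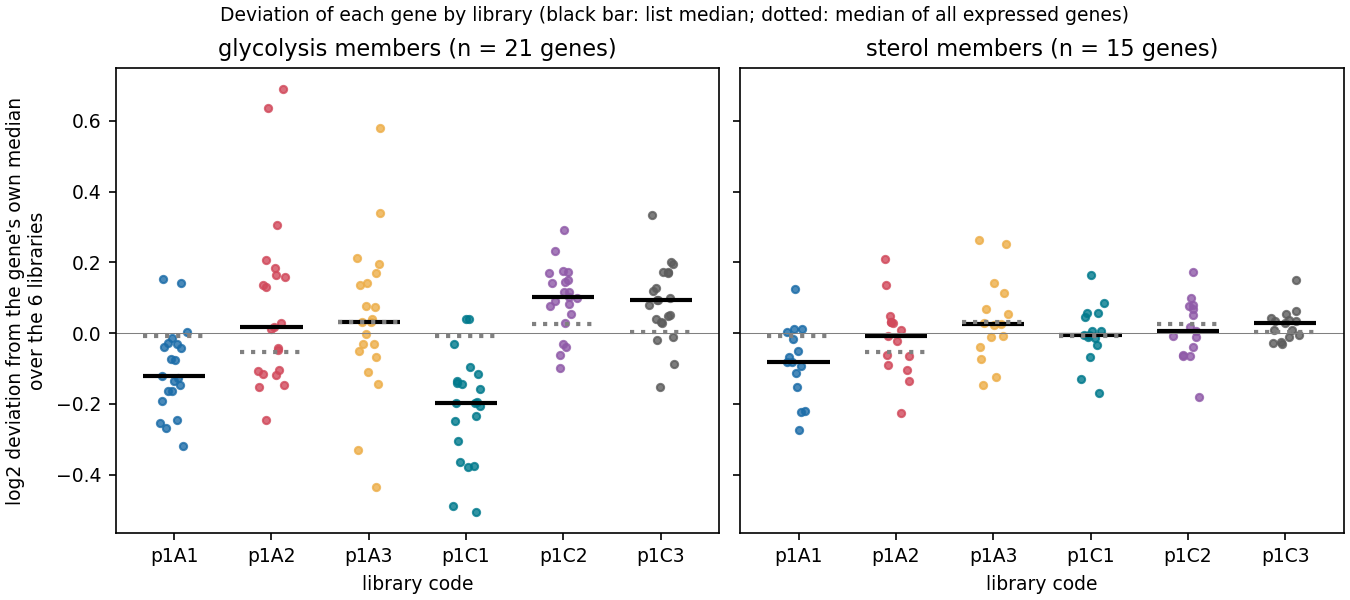
Log2 deviation of each member from its own median over the 6 libraries, by library, for the 21 glycolysis and 15 expressed sterol members. Black bars mark the list medians and dotted bars the median of all expressed genes. The glycolysis bars run from -0.20 in p1C1 to 0.10 in p1C2, and the sterol bars from -0.08 to 0.03.

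Other genes of the same pathways differed from the members in summed level. The further glycolysis-related genes summed to 290 to 321 FPKM per library, against 2330 to 2975 for the glycolysis members. The further sterol and lipid genes summed to 635 to 722 FPKM, against 307 to 334 for the sterol members. Of 28 further glycolysis-related genes, 16 were expressed, none reached a 2-fold range and 3 reached 1.5-fold. The highest were Pgd and G6pdx of the pentose phosphate pathway (medians 78.0 and 30.3 FPKM), the lactate transporter Slc16a1 (57.8), the hypoxia factor Hif1a (29.1) and Pgm2 (19.0). The 3 over 1.5-fold were Galm (1.86), the lactate exporter Slc16a3 (1.85) and the pyruvate dehydrogenase kinase Pdk1 (1.72). Pklr, Ldhc, Pgk2 and Slc2a2, forms known from liver or testis, were listed at 0 in every library. Of 25 further sterol and lipid genes, 24 were expressed and 1, Abca1, reached 2-fold. At 1.5-fold there were 4, Abca1, Nr1h3, Abcg1 and Scd1. For both further lists the shares of all expressed genes to compare are 7.76% at 2-fold and 26% at 1.5-fold. The highest were Lbr, a sterol reductase of the nuclear envelope (118 FPKM), the desaturases Scd2 (87.3) and Scd1 (63.9), Acly, which makes cytosolic acetyl-CoA (59.7), and the sterol exporter Abcg1 (39.2).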

How the data were processed

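The 6 libraries were made with an Illumina TruSeq RNA kit, per the labels' protocols, and sequenced on an Illumina instrument. The authors deposited 1 matrix of FPKM values with 23021 rows. TopHat2 2.0.7, Bowtie2, Cufflinks 2.0.0 and FastQC are listed, per the submitters' processing notes, beside 2 builds, GRCm38 and mm9, with no role given; annotation and scaling between libraries are not given in the sources used here. Rows that share a symbol were summed. The 6 columns were matched to the set of passage 1 libraries only, because their letters are unexplained, and the planned genotype comparison was not run; 0 value columns were left unused. Levels were described by values, medians and ranges, and isozymes were compared within libraries by an exact sign-flip permutation test (Python 3.11.15, numpy 2.4.6) at an adjusted p of 0.05, after scripts were checked on simulated data. Every listed member is named; of other pathway genes, the 5 highest and up to 5 over the fold range. Members and lists were chosen with earlier results of these data known. The genes at 1.5-fold and those listed at 0 were named after their values were seen. Alternatives covered pseudocount, filter, scaling, fold and single libraries.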

Additional observations from a re-analysis of the deposited data

Results flagged for a closer look

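Eno3, the muscle enolase gene, had 1 library apart from the other 5. It measured 3.89 FPKM in p1A3, the next library lay at 2.73 FPKM and the lowest at 2.23 FPKM, so the gap was 0.699 of the whole range. It was the single case among 36 members examined, and chance alone gives about 1 such gap in 20 genes.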

How the results depend on the processing

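The 11 isozyme pairs stayed at 11 with a pseudocount of 1 or 0.01 and with the highest row in place of summed rows. Leaving out any 1 library gave 0 to 0 pairs, because 5 libraries allow no p below 0.0625, while the direction of every pair's median ratio held in all of these settings. The count of 2 members over 2-fold became 1 at a minimum median of 5 FPKM, against 4.32% of all such genes. At 1.5-fold it was 5, against 26% of all expressed genes. When single libraries were left out it ran from 0 to 2, against 3.23% to 7.44%. Under 3 scalings it was 2, against 8.72% to 9.18%. The list median of the glycolysis members moved by less than its spread between libraries under all 3 scalings. That of the sterol members moved by more in p1A2 with median-ratio scaling (0.0384), in p1A1 (-0.0398) and p1C2 (-0.0420) with upper-quartile scaling, and in p1A1 (-0.0220), p1A3 (-0.0149), p1C1 (0.0422) and p1C2 (-0.0942) with equal totals, an alternative chosen after the data were seen. With equal totals 8 glycolysis members were lowest in p1C1 in place of 13, and 3 sterol members were lowest in p1A1 in place of 8. No paired analysis was possible because no column was matched to a genotype. The unknown depth limits what can be said of genes near 2 FPKM, such as Eno2, Eno3 and Ldhb.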

Other observations

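Of the further sterol and lipid genes, those with the widest ranges between libraries were picked after their values were seen. Abca1, a cholesterol exporter, measured 2.13, 3.73, 0.942, 2.00, 1.79 and 2.51 FPKM in the order of the column codes, a 3.96-fold range. Nr1h3, for the sterol-sensing receptor LXR alpha, measured 8.45, 11.6, 6.72, 5.85, 9.91 and 7.16 FPKM, a 1.98-fold range. Abcg1, another exporter, ran from 31.4 FPKM in p1A3 to 54.4 FPKM in p1A2. Nr1h2, for the related receptor LXR beta, and Mylip, another LXR target gene, spanned 1.28-fold each, less than the synthesis enzymes Pmvk (1.40-fold), Mvk (1.34-fold) and Fdps (1.32-fold). Abca1, Nr1h3 and Abcg1 were highest in p1A2, the library with the highest myeloid marker levels, and the part of myeloid cells in these values was not tested. Scd1, a fatty acid desaturase, had its lowest value, 52.5 FPKM, in p1A2 and its highest, 80.0 FPKM, in p1C3.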
